A study of Mus musculus with 6 samples.

Results

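Ucp1, Dio2, Ppargc1a and Kcnk3 are 4 genes of heat production in fat cells, and their RNA was compared here between 2 pools of mouse epididymal white fat. They are 4 of the 13409 genes with a named probe on a spotted array of 19200 probes, and each has 1 probe. They were picked by name and selected on the ratios measured on these same arrays, so their own ratios are given as a description, without a test. The CL-316,243 pool held RNA from 6 male C57BL/6J mice, 12 weeks old, killed 3 hr after an injection of 1 mg/kg of CL-316,243, an agonist of the beta-3 adrenergic receptor. The saline pool held RNA from 6 male C57BL/6J mice of the same age killed 3 hr after saline. Both pools were hybridised together on 6 two-colour arrays, with the CL-316,243 pool in channel 1 on arrays 1, 2 and 3 and in channel 2 on arrays 4, 5 and 6. There was 1 pool per treatment, so the arrays are repeat measurements of the same RNA. Every standard error and p-value below covers the spread between arrays, not between mice.

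In brown and beige adipocytes, noradrenaline acts on beta-adrenergic receptors, cyclic AMP rises, and protein kinase A acts on CREB-family factors at genes with a cyclic AMP response element. Ucp1 encodes the inner-membrane protein that lets protons bypass ATP synthase, so that fuel is burned as heat. Dio2 encodes the deiodinase that turns thyroxine into active triiodothyronine inside the cell, and Ppargc1a encodes the PGC-1alpha coactivator of mitochondrial biogenesis. Kcnk3 encodes the two-pore domain potassium channel TASK-1, which is expressed in brown adipocytes. Epididymal white fat is known in mice as a depot with few such cells. In whole tissue, a change in the number of cells of a type and a change in RNA per cell cannot be told apart.

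The promoters are shown because Ucp1, Dio2 and Ppargc1a are textbook targets of the pathway that the agonist enters. RefSeq windows of 300 bases on GRCm38.p6, from 250 bases before a transcript start to 50 after it, matched 3 of the 4 genes; Kcnk3 did not match. Capitals mark the cyclic AMP response element TGACGTCA in Dio2 and its half-site TGACG in Ucp1 and, on the other strand, in Ppargc1a, and positions are counted from 0 at the start base.
Dio2, chr12:90738989-90739288, minus strand: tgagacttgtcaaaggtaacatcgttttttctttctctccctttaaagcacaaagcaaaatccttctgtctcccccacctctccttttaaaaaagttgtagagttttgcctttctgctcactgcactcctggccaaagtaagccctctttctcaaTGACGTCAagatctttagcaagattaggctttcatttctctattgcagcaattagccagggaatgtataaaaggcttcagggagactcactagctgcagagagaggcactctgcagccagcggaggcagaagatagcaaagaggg
Ppargc1a, chr5:51567676-51567975, minus strand: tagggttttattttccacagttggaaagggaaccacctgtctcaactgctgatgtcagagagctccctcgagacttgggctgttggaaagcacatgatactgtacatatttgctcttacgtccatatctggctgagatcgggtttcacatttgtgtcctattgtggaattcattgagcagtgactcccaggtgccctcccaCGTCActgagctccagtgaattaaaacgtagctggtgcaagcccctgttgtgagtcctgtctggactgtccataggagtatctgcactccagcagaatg
Ucp1, chr8:83290098-83290397, plus strand: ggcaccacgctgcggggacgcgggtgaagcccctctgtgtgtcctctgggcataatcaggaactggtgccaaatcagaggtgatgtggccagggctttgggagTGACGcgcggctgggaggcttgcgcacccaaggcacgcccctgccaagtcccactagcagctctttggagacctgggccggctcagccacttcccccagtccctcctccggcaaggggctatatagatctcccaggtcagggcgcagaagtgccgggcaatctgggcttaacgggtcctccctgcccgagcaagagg

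Each window was searched on both strands for 4 motifs. The Dio2 window held the full element TGACGTCA at position -95, where the half-sites of both strands overlap it. The full element was found in 588 of 32851 windows of this length (1.79%). The Ucp1 window held the half-site TGACG at -147, and the Ppargc1a window held it on the minus strand at -49. That half-site was in 20.8% of all windows. The nuclear receptor half-site AGGTCA, found in 16.3% of all windows, was in the Ucp1 window at -14, and the TATA box TATAAA, found in 13.6%, was in the Dio2 window at -30. A match is a description of these letters, and no factor binding was measured.

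**Figure D1:**
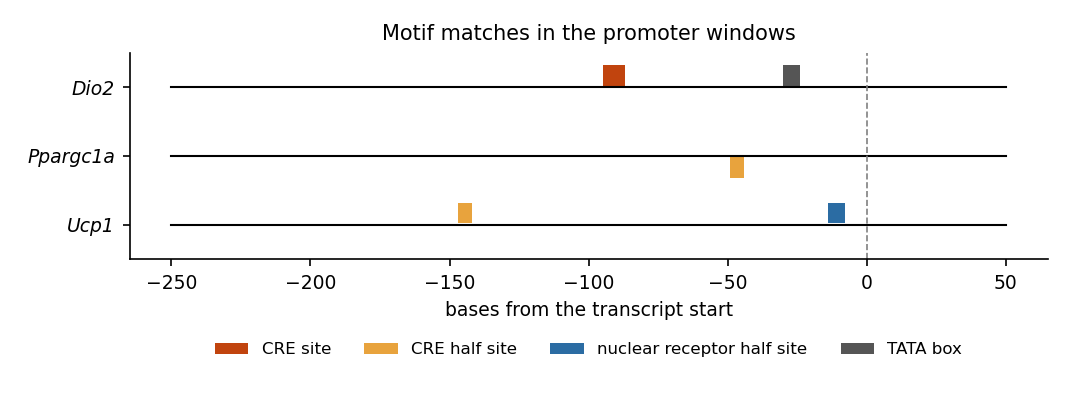
Motif matches in the 300-base promoter windows of Dio2, Ppargc1a and Ucp1, by distance in bases from the transcript start (dashed line at 0); boxes above a line are on the gene's strand, boxes below it on the other strand, and the half-sites inside the Dio2 element are not drawn. The full element lies at -95 in Dio2, and half-sites lie at -49 in Ppargc1a and at -147 in Ucp1.

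The deposited value of a spot is a log ratio of both channels, taken here as log2. The sources used here do not give the numerator pool. The 4 genes, and the 5 seminal vesicle genes described below, had the same deposited sign with the CL-316,243 pool in either channel. A positive ratio is therefore read here as more RNA in the authors' numerator pool. These genes were selected on, or called from, the same ratios, which favours a shared sign. Other genes did not all share it: Lep, a white adipocyte marker, had 0.36, 0.20 and 0.043 on arrays 1, 2 and 3. On arrays 4, 5 and 6 Lep had -0.62, -0.51 and -0.62. If the numerator pool is the saline one, every direction below turns round. Rows did not correspond between the deposited columns, because lost spots had been closed up, and each column was placed on the probe numbers before any gene was read. From 64.1% (array 2) to 99.8% (array 6) of probes were placed. Array 2 also had the widest spread, with an SD of 0.79 against 0.42 to 0.57 on the other arrays. The rank correlation of placed arrays averaged 0.28 within an orientation (0.088 to 0.42, 6 pairs) and 0.11 between orientations (-0.017 to 0.17, 9 pairs). The placement itself raises it, since values were placed where they matched the other arrays. For the same reason the standard errors and p-values below can be too small. Only ratios were used here, so neither RNA levels nor the identity of the tissue could be checked.

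All 4 genes had a positive ratio on every array where they could be read. Their mean log2 ratios ran in the order Dio2, Ppargc1a, Ucp1 and Kcnk3. The median over the 12948 genes tested was -0.011, and 47.9% of those genes were positive. The 5th and 95th percentiles of the mean ratio over all genes tested were -0.41 and 0.44, so Kcnk3 lay just above the upper one.

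Dio2, the deiodinase, had log2 ratios of 0.98, 1.60 and 0.17 on arrays 1, 2 and 3 and of 1.98, 1.34 and 0.99 on arrays 4, 5 and 6. Array 4 was the highest and array 3 stood far below the rest. The mean of both orientations was 1.18 ± 0.19 (SE, 6 arrays), a 2.26-fold difference between the pools. That mean ranked 71st among the genes tested. Within its array the probe lay above at least 98.3% of placed values on arrays 1, 2, 4, 5 and 6, and above 68.3% on array 3. On arrays 1, 4, 5 and 6, 0 of the 50 nearest probes had a higher ratio, against 15 on array 3.

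Ppargc1a, the coactivator, had log2 ratios of 0.97, 0.64 and 0.19 on arrays 1, 2 and 3 and of 1.63, 0.63 and 0.56 on arrays 4, 5 and 6. The high and low ends were again arrays 4 and 3, with the other 4 arrays between them. The mean was 0.77 ± 0.16 (SE, 6 arrays), or 1.71-fold, and it ranked 193rd. Its percentile within each array ran between 90.6 and 98.9 apart from array 3, where it was 70.9.

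Ucp1, the uncoupling protein, could be read on 4 arrays. Its log2 ratios were 0.62 and 0.78 on arrays 1 and 3, and 0.26 and 0.32 on arrays 5 and 6. Both values with the CL-316,243 pool in channel 1 were above both values with it in channel 2. The mean was 0.49 ± 0.13 (SE, 4 arrays), or 1.41-fold, ranked 494th. Its percentile was 95.7 and 96.0 on arrays 1 and 3, and 77.1 and 81.4 on arrays 5 and 6. On array 2 the most probable row for the probe, at a probability of 0.47, held a ratio of 0.23. On array 4 the probability that the spot was lost was 0.50, and the most probable row, at 0.30, held a ratio of -0.20. Neither value was used, so the positive sign on every measured array does not cover arrays 2 and 4 for this gene.

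Kcnk3, the potassium channel, had log2 ratios of 0.39, 1.01 and 0.0051 on arrays 1, 2 and 3 and of 0.67, 0.18 and 0.47 on arrays 4, 5 and 6. The ratio on array 3 was in the middle of that array, above 50.6% of its values, and array 2 was the highest. The mean was 0.45 ± 0.14 (SE, 6 arrays), or 1.37-fold, ranked 604th. Without array 2 it was 0.32, the lowest of its values with 1 array left out.

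**Figure D2:**
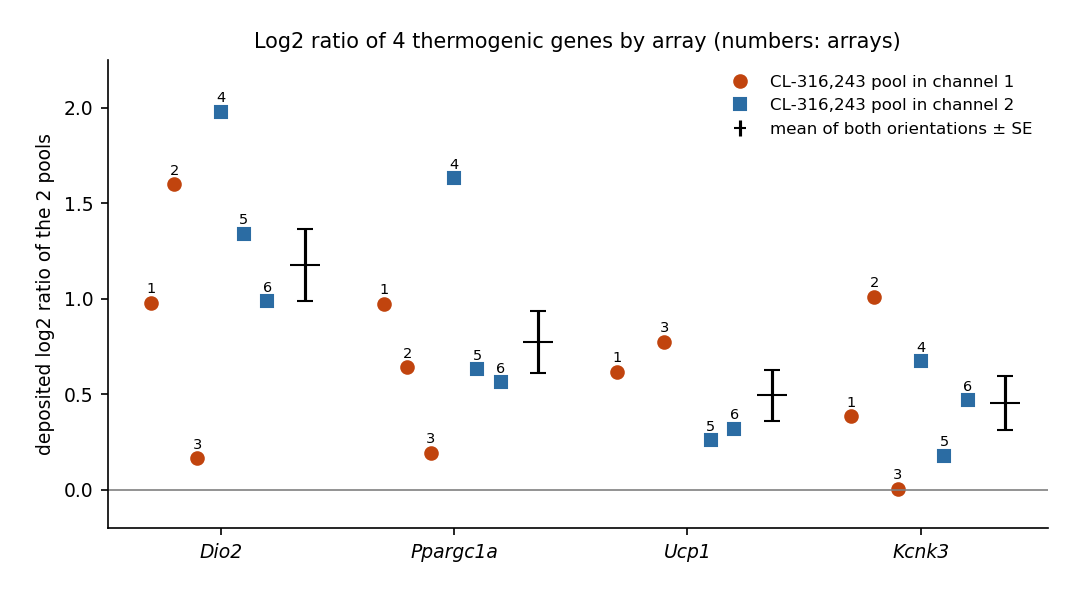
Deposited log2 ratio of the 2 pools (vertical axis) for Dio2, Ppargc1a, Ucp1 and Kcnk3 on each array (numbered points; circles, CL-316,243 pool in channel 1; squares, in channel 2), with the mean of both orientations and its SE over arrays as a black bar. All points lie above 0, array 3 is the lowest for Dio2, Ppargc1a and Kcnk3, and Ucp1 has no point for arrays 2 and 4.

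Array 3 set the low end for Dio2, Ppargc1a and Kcnk3. The mean of these 3 genes was 0.12 on array 3, above 61.8% of genes on that array. On arrays 1, 2, 4, 5 and 6 the mean of the 3 genes was 0.78, 1.09, 1.43, 0.72 and 0.67, above at least 95.8% of genes on each. Genes called between the pools, chosen on these same arrays, also had smaller ratios there. They include Dio2 and Ppargc1a, whose calls are not a test, since both were selected on these ratios. The call of Dio2 was lost without array 1 or 5, and that of Ppargc1a without array 1, 2, 4 or 5. Over the 295 called genes with values on all arrays, the median size of the log2 ratio was 0.58 on array 3 and 0.57 on array 6. It was 0.76 to 0.87 on arrays 1, 2, 4 and 5. Over all deposited values the SD was 0.46 on array 3, inside the 0.42 to 0.79 of the other arrays. Ucp1 was the exception among the 4 genes, with its highest ratio on array 3. The median over the white adipocyte markers was also highest on that array. It was 0.69 over 9 markers on array 3, against -0.019 to 0.36 over the 3 to 9 markers read on the other arrays. Of the 9 markers 7 were positive on array 3, while Pparg was at -0.59 and Slc2a4 at -0.345. Cidec, a lipid droplet protein, had 3.17 on array 3 and 0.075 to 0.94 on 4 others. The part of this in the Ucp1 ratio was not tested; without array 3 the Ucp1 mean was 0.45. Without array 3 the means of Dio2, Ppargc1a and Kcnk3 were 1.36, 0.87 and 0.57.

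Swapping the channels tests whether a ratio follows the dye, and this contrast was not used to choose the genes. Arrays 1 to 3, which carried the agonist pool in channel 1, minus arrays 4 to 6, which carried it in channel 2, gave a difference of means of -0.52 ± 0.37 for Dio2 (SE; means 0.92 and 1.44). For Ppargc1a it was -0.34 ± 0.32 (means 0.60 and 0.94), and for Kcnk3 0.029 ± 0.28 (means 0.47 and 0.44). For Ucp1 it was 0.41 ± 0.26 (means 0.70 and 0.29, 2 arrays each). The Benjamini-Hochberg adjusted p of limma's dye term, over 12948 genes, was 0.62 for Dio2, 0.71 for Ppargc1a, 0.98 for Kcnk3 and 0.59 for Ucp1. Of the 12948 genes 1 passed an adjusted p of 0.05 for this term (0.00772%), and 1371 had an unadjusted p under 0.05 from limma. The mean rank correlation of arrays was 0.28 within an orientation and 0.11 between orientations. The single gene called therefore does not show that orientation had little effect. With 2 or 3 arrays an orientation, differences of the size seen for Dio2 and Ucp1 could not be separated from 0.

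The order of the 4 genes separated its 2 ends on every array. Dio2 was above Kcnk3 on 6 of 6 arrays, by 0.72 ± 0.43 (SD over arrays) on the log2 scale. Dio2 exceeded Ppargc1a on 5 of 6 arrays, by 0.40 ± 0.39, and Ppargc1a exceeded Kcnk3 on 5 of 6, by 0.32 ± 0.46. Ppargc1a and Ucp1 differed by 0.097 ± 0.46 and Ucp1 and Kcnk3 by 0.23 ± 0.39 over 4 arrays, with the first named higher on 3 of 4. Neighbours in the order other than Dio2 and Ppargc1a therefore differed by less than the SD over arrays. These are differences between ratios, and they say nothing of which gene had more RNA.

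The values depend on reading the right row, so the rows were checked on arrays 5 and 6. Arrays 1, 2, 3 and 4 were not checked in this way. Array 6 had lost 1 spot, and array 5 had lost 8. Over the rows around Ppargc1a and Kcnk3, whose probes lie 8 spots apart, arrays 5 and 6 correlated at 0.45 when the row on array 6 was 8 above that on array 5, and at no more than 0.11 at any other difference between 0 and 12. Around Dio2 the peak was 0.52 at a difference of 7, with 0.071 as the next highest. The lost spot of array 6 was thus placed between Kcnk3 and Dio2. Around Ucp1, near the start of the array, the highest value was 0.19 at a difference of 6. The placement read Ucp1 at row 123 on array 5 and row 126 on array 6, a difference of 3, where the correlation was 0.07. This check therefore gives no backing to the row read for Ucp1 on array 5, and the Ucp1 mean without array 5 was 0.51.

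**Figure D3:**
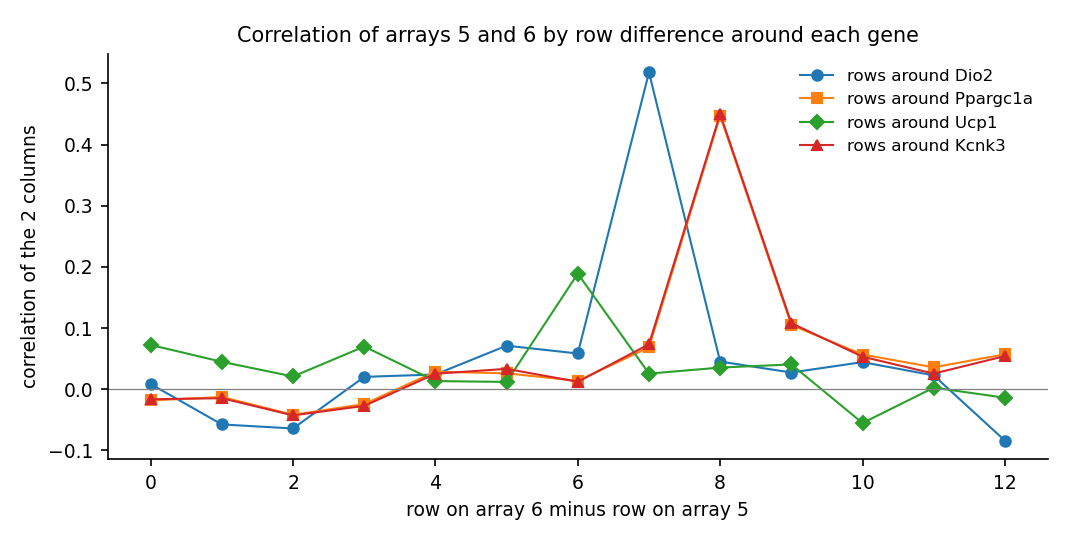
Correlation of the deposited columns of arrays 5 and 6 (vertical axis) against the row difference between them (horizontal axis), over up to 400 rows on either side of each gene. The rows around Ppargc1a and Kcnk3 peak at a difference of 8 and those around Dio2 at 7, while the rows around Ucp1 peak lower, at 6.

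The neighbouring probes show what a slip of 1 row would give. Next to Dio2 the probe of Ltbp3 had ratios between -0.23 and 0.52, and the probe on the other side between -0.50 and -0.10. Next to Ppargc1a the probe of Snx12 had ratios between -0.51 and -0.075, while that of Ugdh, an enzyme that makes UDP-glucuronate, had 0.77 to 2.37, with 1.56 on array 4 beside 1.63 for Ppargc1a. Next to Kcnk3, Bard1 had -0.51 to 0.37 and Gfi1 -0.54 to 0.26, with 0.0067 for Gfi1 on array 3 beside 0.0051 for Kcnk3. Ucp1 lies between Slbp and Gdf3, which had 0.47 and 1.11 on array 3 and -0.22 to 0.21 on arrays 1, 5 and 6. When the probes of the 4 genes were left out of the evidence for the placement, Ppargc1a, Ucp1 and Kcnk3 kept their values. Dio2 then lost its position on array 2, and its mean was 1.01 over 5 arrays.

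**Figure D4:**
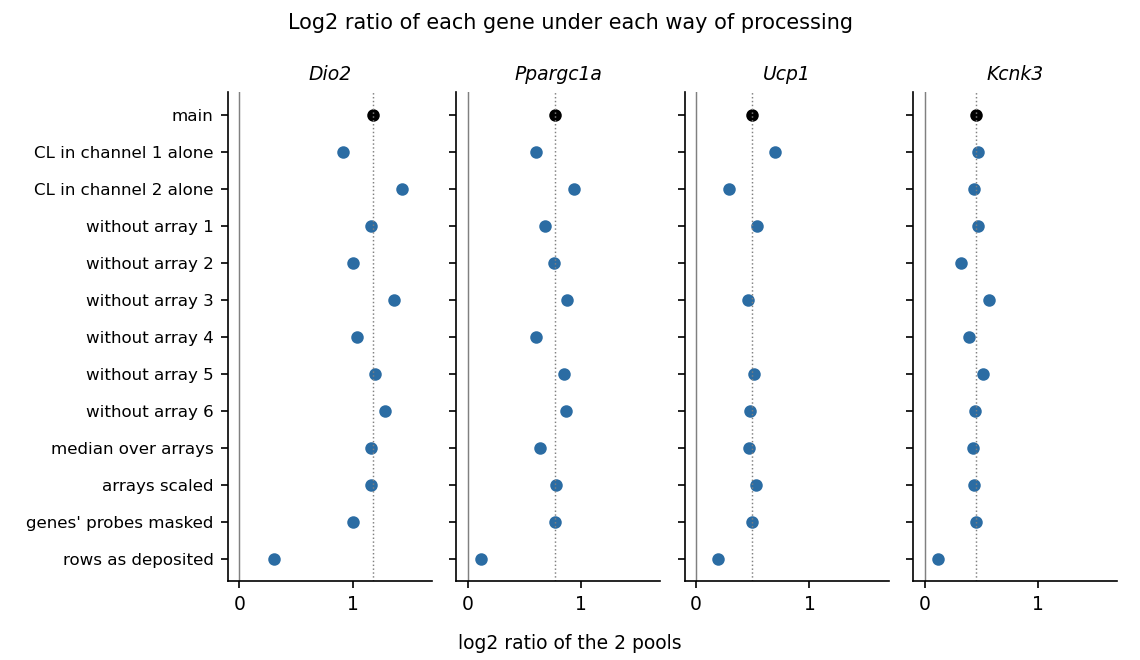
Mean log2 ratio of each gene (horizontal axis) in the main processing (black; dotted line) and under up to 12 other ways of processing (blue; Ucp1 has no value to leave out on arrays 2 and 4), where masked means left out of the placement evidence. Every point lies above 0, and the values read from rows as deposited, 0.12 to 0.31, are the lowest for each gene. Where values of the main processing were only dropped, rescaled or averaged, a point could not fall below 0, since those values were all positive.

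The genes with the most similar ratios were found by the root mean square difference over the arrays on which each of the 4 was read. For Dio2 these were Got1 (0.37), Rabgef1 (0.38) and Crybb3 (0.38) among 7883 genes on 6 arrays. For Ppargc1a they were Prickle1 (0.23), Cldn3 (0.26) and Aopep (0.27). For Kcnk3 they were Farsa (0.11), Ccdc86 (0.14) and Selenok (0.15). For Ucp1, on 4 arrays and among 12487 genes, they were Pklr (0.029), Cars (0.051) and Mest (0.071). None of the 4 genes was among the nearest 3 of another. Ppargc1a was the 26th nearest gene to Dio2, and Dio2 the 119th nearest to Ppargc1a, both at a difference of 0.54. From Ucp1, on 4 arrays, Ppargc1a was 1537th (0.41), Kcnk3 1605th (0.41) and Dio2 8986th (0.73). Dio2 and Kcnk3 differed by 0.82, with Kcnk3 126th from Dio2 and Dio2 6112th from Kcnk3. A rank therefore depends on the gene it is counted from.

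The other genes of the thermogenic pathway give the setting. Over all 12948 genes, limma at an adjusted p of 0.05 called 427 between the pools (3.3%), 258 positive (1.99%) and 169 negative (1.31%). The count was 155 without array 1, 213 without array 4 and 121 without array 5. At an unadjusted p under 0.05 there were 2395 genes (18.5%), the share against which the unadjusted counts of the lists below are to be read. The called counts of the lists are to be read against 3.3%, so 0 called genes in a short list says little about it.

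Of 34 tested genes of brown and beige adipocytes other than these 4, 0 were called in either direction by limma, 5 had an unadjusted p under 0.05 (18.5% over all genes), and 20 were positive. Their median log2 ratio was 0.043, with a range of -0.32 to 0.80, against -0.011 over all genes. Hspb7, a small heat shock protein, was the highest at 0.80 ± 0.22 (SE, 5 of 5 arrays positive), with an adjusted p of 0.0947 from limma. Without array 3, where it had 0.062, its mean was 1.20 and its adjusted p from limma 0.0107. Ppara, the fatty acid oxidation receptor, had a mean of 0.72 that included 2.44 on array 4, and Hoxc9 one of 0.71 that included 2.26 on the same array. These 3 means lie above those of Ucp1 and Kcnk3. Prdm16, the regulator of brown fat identity, was at -0.030 ± 0.11, Elovl3 at 0.18 ± 0.14, Cox8b at 0.31 ± 0.12 and Ppargc1b at -0.0018 ± 0.11. Cidea was placed on 3 arrays only, at -0.16, -0.075 and 0.56, and was not tested.

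Among the relatives of Ucp1, 0 of 3 tested genes were called, with 1 of 3 at an unadjusted p under 0.05. Slc25a14 was at 0.36 ± 0.12 and positive on 5 of 5 arrays, Slc25a30 at -0.042 ± 0.11 and Slc25a27 at -0.18 ± 0.12. Ucp3 was placed on 3 arrays, at -0.082, 0.33 and 1.04, and Ucp2 has no named probe here. Of 14 tested genes of other heat-producing cycles and creatine handling, 0 were called (4 at an unadjusted p under 0.05). Alpl, the phosphatase, was at 0.65 ± 0.20, Gpd1, a glycerol phosphate dehydrogenase, at 0.53 ± 0.14, and Ckmt2, the sarcomeric mitochondrial creatine kinase, at 0.49 ± 0.18.

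Around Dio2, 0 of 19 tested genes of thyroid hormone handling were called, 9 were positive, and 7 had an unadjusted p under 0.05. Their median was -0.019. Dio1, the other activating deiodinase, had the opposite sign to Dio2, at -0.44 ± 0.12 and negative on 5 of 5 arrays, with an adjusted p of 0.0839 from limma. Slc7a8, an amino acid transporter that also carries thyroid hormones, was at 0.42 ± 0.11 and positive on 5 of 5 arrays (adjusted p 0.0906 from limma). Ncoa1, a nuclear receptor coactivator, was at -0.49 ± 0.14.

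Around Ppargc1a, 2 of 29 tested partners and mitochondrial biogenesis genes were called, both negative, and 10 of 29 were positive, with a median of -0.11. Of the 29, 7 had an unadjusted p under 0.05 from limma. Sirt1, the deacetylase that acts on PGC-1alpha, had ratios of -0.60 and -0.39 on arrays 1 and 3 and of -0.81, -0.87 and -0.61 on arrays 4, 5 and 6, a mean of -0.63 ± 0.12 with an adjusted p of 0.0254 from limma. Mfn2, a mitochondrial fusion protein, ranged from -0.78 to -0.23 over 6 arrays, with a mean of -0.51 ± 0.10 and an adjusted p of 0.0264 from limma. Both calls were lost when 1 array was left out: Sirt1 without array 1, 3, 4 or 5 (limma's adjusted p 0.0554 to 0.157), and Mfn2 without array 1, 2, 4, 5 or 6 (0.0597 to 0.13). Polg, the mitochondrial DNA polymerase, was at -0.82 ± 0.19 and not called. Tfam, the mitochondrial transcription factor, was at -0.38 ± 0.12 and Esrra at 0.19 ± 0.13.

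Of the 6 tested relatives of Kcnk3 among two-pore potassium channels, 0 were called and 0 had an unadjusted p under 0.05. The values furthest from 0 were those of Kcnk16 at -0.40 ± 0.23, which included -2.16 on array 3, Kcnk2 at 0.27 ± 0.14 and Kcnk1 at -0.17 ± 0.12.

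Upstream, 3 of 23 tested genes of beta-adrenergic signalling to transcription were called, all positive, and 16 of 23 were positive, with a median of 0.15. Of the 23, 10 had an unadjusted p under 0.05 from limma. Atf4, a transcription factor, had 1.98, 2.42 and 1.15 on arrays 1, 2 and 3 and 1.24, 1.85 and 1.50 on arrays 4, 5 and 6. The Atf4 mean was 1.69 ± 0.16 with an adjusted p of 0.000701 from limma. Akap12, a scaffold of protein kinase A, had 1.59, 1.75 and 0.61 on arrays 1, 2 and 3 and 1.81, 1.95 and 1.83 on arrays 4, 5 and 6, a mean of 1.59 ± 0.15 with an adjusted p of 0.000608 from limma. Both means were above that of Dio2, and both genes stayed called whichever array was left out. Sik1, a kinase induced by cyclic AMP, was at 0.67 ± 0.15 with an adjusted p of 0.0475 from limma. Its call was lost without array 1, 4, 5 or 6 (limma's adjusted p 0.0664 to 0.241). Crem, the cyclic AMP response element modulator, was at 1.05 ± 0.27 and positive on 5 of 5 arrays, and was not called (adjusted p 0.0771 from limma). The transcription factors Creb1, Atf1 and Atf2 of this list were at 0.0034 ± 0.13, -0.015 ± 0.10 and -0.070 ± 0.20, and were not called.

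Of 25 tested activators and repressors of the thermogenic programme, 1 was called, 6 had an unadjusted p under 0.05 from limma, and the median was -0.045. Cebpd, a C/EBP transcription factor, was at 0.76 ± 0.14 and positive on 5 of 5 arrays, with an adjusted p of 0.0272 from limma. That call was lost without array 1, 4, 5 or 6 (limma's adjusted p 0.0636 to 0.167). Irf4, a transcription factor that acts with PGC-1alpha in brown fat, was at -0.94 ± 0.27 with -2.31 on array 4, and Cidec, described above, was at 1.17 ± 0.33; neither was called.

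**Figure D5:**
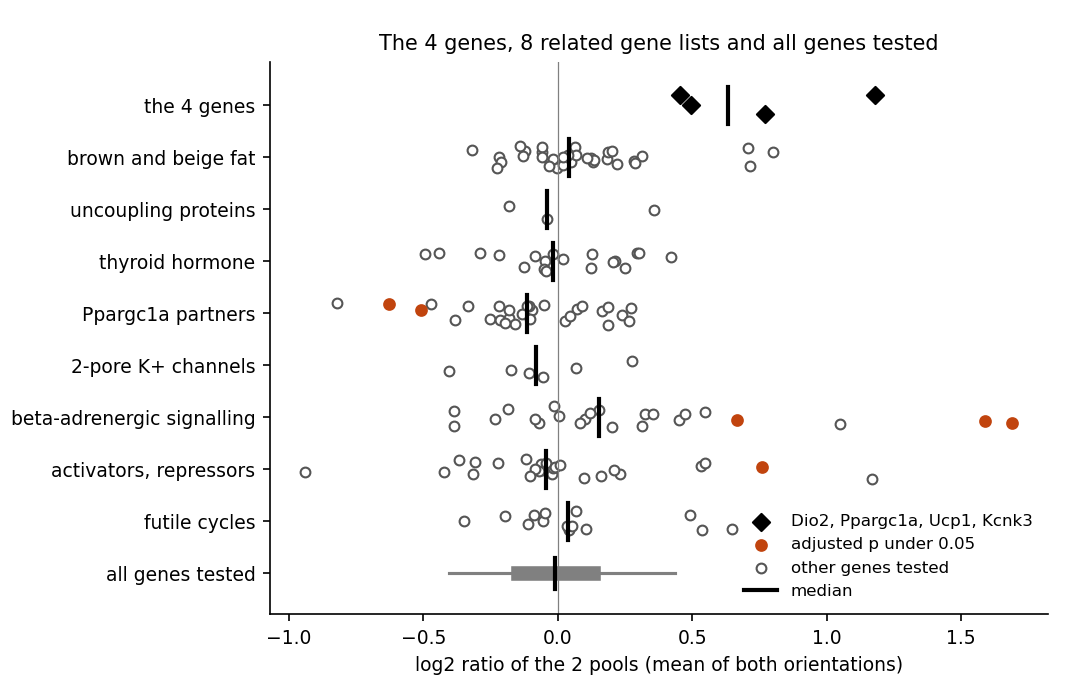
Mean log2 ratio (horizontal axis) of the 4 genes (black diamonds), of the tested genes of 8 related lists (circles; filled where limma's adjusted p was under 0.05) and of all genes tested (grey: thick bar, middle 50%; thin line, 5th to 95th percentile), with black bars at the medians. Called genes lie among the Ppargc1a partners (2 negative), beta-adrenergic signalling (3 positive) and the activators and repressors (1 positive).

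Some markers of other tissues were also called between the pools, most of them from the seminal vesicle. Of 10 tested genes of seminal vesicle and epididymis, which lie beside this fat depot, 5 were called, all negative: the seminal vesicle genes Svs5 at -5.47 ± 0.48, Svs2 at -4.98 ± 0.41, Pate4 at -2.73 ± 0.39, Svs6 at -2.17 ± 0.27 and Svs4 at -1.16 ± 0.24. The other 5 were not called and lay near 0: Lcn5 at 0.19 ± 0.24, Adam7 at 0.15 ± 0.16, Lcn8 at 0.13 ± 0.11, Defb2 at 0.10 ± 0.12 and Rnase10 at -0.11 ± 0.11, so 4 of the 10 were positive. Svs4 was not called without array 1, 2, 4 or 5 (limma's adjusted p 0.0676 to 0.135). Of 10 skeletal muscle markers 1 was called, Tnnc2 at 1.19 ± 0.16, and 5 were positive. Of 9 endothelial markers 1 was called, Cldn5 at 0.75 ± 0.12, which was not called without array 5 (limma's adjusted p 0.0779). Only 2 of these 9 endothelial markers were positive, and Tek, another of them, was at -0.51 ± 0.12 and not called. Of 9 white adipocyte, 9 macrophage and 4 mesothelial markers 0 were called by limma, with 5, 4 and 1 at an unadjusted p under 0.05. The medians were -0.63 for seminal vesicle and epididymis, -0.028 for muscle, -0.11 for endothelium, 0.34 for white adipocytes, -0.11 for macrophages and -0.046 for mesothelium. The part of these cells in the ratios of the 4 genes was not tested.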

How the data were processed

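Pooled RNA was labelled with fluorescein (Cy3) or biotin (Cy5), amplified with tyramide, scanned with a ScanArray 5000 and quantified with QuantArray 3.0, per the labels' protocols. The deposited values are log ratios, taken as log2, that the authors made with a uniform Cy5 to Cy3 scale factor and LOWESS, per the labels. The log base, numerator, background correction and spot filter were not stated in those sources. The description writes the agonist CL316,246 once; the titles' CL-316,243 is used.

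Empty cells stood only at the foot of each column (29, 724, 38, 169, 8 and 1 on arrays 1 to 6). A hidden Markov model, which predicts an array's normal scores, clipped at 3, from the other arrays in 3 rounds, assigned each value to one of the 19200 probes; positions with a posterior of at least 0.95 were kept. This was not foreseen in the fixed design. The placement was tested on simulated data, with lost spots scattered at random over the array. In the data they were crowded: 561 of the 724 on array 2 and 162 of the 169 on array 4 were placed before the Dio2 probe. The simulation does not cover that setting. A ratio is the mean of both orientations' means. Genes with at least 4 arrays and 1 per orientation were tested with limma 3.58.1 in R 4.3.3, with a dye term and Benjamini-Hochberg adjustment; placement ran in Python 3.11.15. Names came from the platform annotation: 14711 of 19200 probes have 1 symbol, 6 several (not named) and 4483 are unnamed here; 14416 matched current records. The members and lists were chosen with earlier results of these data known. Named genes were the 4 members, the 3 nearest of each, and from each list every called gene and the 3 largest mean ratios in size. Prdm16, Elovl3, Cox8b, Ppargc1b, Cidea, Ucp3, Tfam, Esrra, Lep, Creb1, Atf1, Atf2, the uncalled seminal vesicle and epididymis genes and the neighbouring probes were named after their values were seen. The number of arrays limits the precision.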

Additional observations from a re-analysis of the deposited data

How the results depend on the processing

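The ratios of Dio2, Ppargc1a, Ucp1 and Kcnk3 kept their sign under every alternative run. Some alternatives only dropped, rescaled or averaged the values of the main processing, which were all positive, so the sign could not change. These were a posterior of 0.99, 1 probe per gene, arrays scaled, the median over arrays, each array left out and each orientation alone. A posterior of 0.5 could not change it either, since the best Ucp1 positions on arrays 2 and 4 had posteriors of 0.47 and 0.30. The sign could change with their own probes left out of the placement evidence, a lost spot followed by another with probability 0.2, and rows as deposited. A further alternative, chosen after seeing the data, left out the 20 probes on either side as well; Dio2 was then 1.01, and Ucp1, which lost its position on array 5, 0.51 over 3 arrays. Read from rows as deposited, which does not align the probes, the ratios were 0.31 for Dio2, 0.12 for Ppargc1a, 0.19 for Ucp1 and 0.12 for Kcnk3, 0 genes were called for either term and the brown and beige median was 0.00069; Akap12 (-0.051), Cebpd (-0.76), Svs4 (0.031) and Svs5 (0.036) then changed sign. With 1 array left out the ratios ran from 1.01 to 1.36 for Dio2, 0.60 to 0.87 for Ppargc1a, 0.45 to 0.53 for Ucp1 and 0.32 to 0.57 for Kcnk3. Genes called between the pools then numbered 121 to 367, genes called for the dye term 1 to 2, brown and beige genes called 0 to 1, and their median ran from 0.0089 to 0.064. With the CL-316,243 pool in channel 1 alone 40 genes were called and that median was -0.026; in channel 2 alone 231 were called. The cause of these shifts was not tested, beyond the smaller number of arrays. Signal over background is unknown, since the values are ratios. Each ratio already pairs the 2 pools within an array. Arrays could not be paired between orientations, because the labels number them 1 to 6, with no number shared.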
